A study of Mus musculus with 49 samples.

Results

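GABA-A receptor subunit genes encode the chains of the chloride channels that GABA opens. The 7 genes described here, of 19 GABA-A subunit genes and 52636 genes in the count table, were taken by name, not by any measured value: the alpha subunits Gabra2, Gabra4 and Gabra5, the beta subunits Gabrb1 and Gabrb2, the gamma subunit Gabrg1 and the delta subunit Gabrd. They were followed in medium spiny neurons (MSNs), the main neurons of the mouse nucleus accumbens, that carry the D1 or the D2 dopamine receptor and were isolated in 3 ways. Sorted whole cells gave 8 D1 libraries and 6 D2 libraries, and sorted nuclei gave 6 and 5. RiboTag, a pull-down of tagged ribosomes, gave 6 of each from males and 5 of each from females, for 47 libraries in all.

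All mice were C57BL/6J, each library came from a different mouse, and the ages are not given in the sources used here. Whole cell and nuclear libraries were from males. Mice for whole cell-FACS were heterozygous for a cytoplasmic fluorophore driven by the Drd1 or the Drd2 promoter, and their fresh tissue was dissociated with papain and sorted. Mice for nuclear-FACS carried Drd1-cre or Drd2-cre with Thy1-loxPSTOPloxP-EGFP-F, also heterozygous, and GFP-labelled nuclei were sorted from frozen tissue. Mice for RiboTag carried Drd1-cre or Drd2-cre with Rpl22-loxPexon4loxP-exon4-HA, whose tagged ribosomes were immunoprecipitated from fresh tissue with the RNA they held. Activity of the Drd1 or Drd2 driver thus set which cells entered each group, and every group carried such a label.

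GABA-A receptors are pentamers, most often of the alpha and beta classes with either a gamma or a delta subunit. The alpha subunit and the choice of gamma or delta shape where the receptor sits and how it responds: receptors with alpha4 and delta lie mainly outside synapses and carry a lasting, tonic current, whereas alpha2 receptors with a gamma subunit are typical of synapses. MSNs both release GABA and receive it, from each other and from local interneurons.

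Positions are on GRCm38. Gabrg1 (chr5:70751047-70842617), Gabra2 (chr5:70957597-71095849) and Gabra4 (chr5:71569749-71658308) lie in a row on the minus strand, and Gabrb1 (chr5:71658113-72149037) follows on the plus strand. Gabra4 and Gabrb1 share 196 bases at their starts. Gabrb2 is on chromosome 11 (42419757-42629028, plus), Gabrd on chromosome 4 (155384980-155398112, minus) and Gabra5 on chromosome 7 (57407672-57510059, minus). The fragment counts covered whole genes, introns included, without regard to strand, and most of Gabra5 is overlapped by annotation on the other strand, in part by the antisense gene Gm9962. Fragments from the 2 strands cannot be told apart there, so that every Gabra5 value below covers both.

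The promoters of Gabra2 and Gabra4 are shown because these genes are neighbours, read in the same direction from the same gene cluster. Only Gabra4 was called between the cell types within a method below. The fold changes of the pair had the same sign in each method and were not tested against each other. Each stretch is 195 bases that end 55 bases before the annotated start, from RefSeq on GRCm38.p6, minus strand, with the GC-box letters CCGCCC and the reverse complement GGGCGG in capitals.
Gabra2, chr5:71095905-71096099: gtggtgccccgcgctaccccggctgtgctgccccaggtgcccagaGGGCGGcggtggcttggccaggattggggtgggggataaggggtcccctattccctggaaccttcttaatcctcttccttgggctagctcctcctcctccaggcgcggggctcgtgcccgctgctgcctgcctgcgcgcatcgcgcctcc
Gabra4, chr5:71658364-71658558: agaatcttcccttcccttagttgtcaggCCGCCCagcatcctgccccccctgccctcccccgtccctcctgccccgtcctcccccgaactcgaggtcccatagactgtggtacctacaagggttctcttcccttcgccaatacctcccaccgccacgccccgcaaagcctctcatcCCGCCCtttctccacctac
The Gabra2 stretch held 1 match and the Gabra4 stretch held 2, and 23.8% of 32851 mouse promoters held at least 1 over the same window. The GC content was 69.7% for Gabra2 and 63.6% for Gabra4, against a median of 51.3%. These matches are letters in a window, and no binding was measured.

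Depth varied most among nuclear libraries (3701255 to 68777008 counts), with 10476223 to 27965357 counts per whole cell library and 24076888 to 45641342 per RiboTag library. The 10 highest genes took 84.9 to 88.3% of the counts of every RiboTag library. Counts over olfactory and vomeronasal receptor genes, which MSNs are not known to use, gave an estimate of the background that any stretch of genome collects. By this estimate background made up 8.35 to 52.5% of counts in whole cell, 0.578 to 22.2% in nuclear D1, 32.5 to 52.3% in nuclear D2 and 0.0257 to 0.0629% in RiboTag libraries, so nuclear D2 libraries stood apart from nuclear D1 without overlap. In the whole cell and both RiboTag comparisons, all 5 D1-MSN markers (Drd1, Pdyn, Tac1, Isl1, Chrm4) were lower in D2 and all 5 D2-MSN markers (Drd2, Adora2a, Penk, Gpr6, Sp9) were higher. In nuclear libraries Drd1 fell by 1.75 and Drd2 rose by 1.74 on the log2 scale, but Penk, the enkephalin precursor of D2-MSNs, fell by 2.41 in D2, and Adora2a differed by -0.05. None of the remaining tested markers was called there. Pdyn (-0.23), Tac1 (-0.43) and Chrm4 (-0.78) were lower in D2, and so was the D2-MSN marker Gpr6 (-1.12). Isl1 and Sp9 were not tested in nuclear libraries. Among called markers, nuclear D1 and D2 libraries thus followed their labels only for the receptors that drive the sort and went against them for Penk. Among the 6 marker lists of other cell types, summed levels were higher in nuclear D2 than in nuclear D1, without overlap, for interneurons (561 to 1006 CPM against 177 to 456), endothelium (312 to 600 against 24.2 to 258), oligodendrocyte precursors (136 to 203 against 43.4 to 123) and microglia (400 to 579 against 174 to 397). Astrocyte (459 to 589 against 254 to 571) and oligodendrocyte sums (894 to 1799 against 852 to 2249, the median being lower in D2) overlapped. Of the 14 genes of these lists that were tested, 3 were called and all were lower in D2: the interneuron peptide Sst (-1.91), the astrocyte connexin Gja1 (-0.60) and the myelin enzyme Cnp (-0.96). No gene of these lists was at 0 in every library of either group. Nuclear values were read with these figures beside them, whose part in the nuclear results was not tested.

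Values per library are CPM, counts relative to library size after trimmed-mean (TMM) scaling within each method. Library size was taken over the genes that passed the filters, and CPM are not compared between methods in this form. A gene was tested where it passed the filters of that method and was called at an adjusted p of at most 0.05 in edgeR's quasi-likelihood test with Benjamini-Hochberg adjustment over all genes tested. Log2 fold changes are D2 against D1, with their standard error.

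The levels within each group are first set out per length, by FPKM over the gene span. In male RiboTag D1 libraries Gabrd led with a median of 0.502 and Gabra4 followed with 0.200, Gabra2 with 0.151 and Gabrb2 with 0.0909, each clear of the next in every library. Gabrb1 (0.0551), Gabra5 (0.0456) and Gabrg1 (0.0381) overlapped with their neighbour in this order. The other RiboTag groups gave the same leading 4 in the same order. In whole cell D1 libraries the same 4 led (Gabrd 4.23, Gabra4 2.88, Gabra2 2.39, Gabrb2 1.74), but each overlapped the next. In nuclear libraries Gabra4 led in D1 with 3.19 and Gabrd in D2 with 2.55, and the pair overlapped in both groups. Gabrg1 was last in every group except female RiboTag D2, where Gabra5 was (0.0323 against 0.0376, with overlap).

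The choice of length set the order. Per kilobase of summed exons, Gabrd, whose span of 13.1 kb is the shortest, came sixth in the whole cell and nuclear groups, and Gabrb2, Gabra4 or Gabrb1 led instead. Gabrg1 was last on this scale in all 8 groups.

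**Figure D1:**
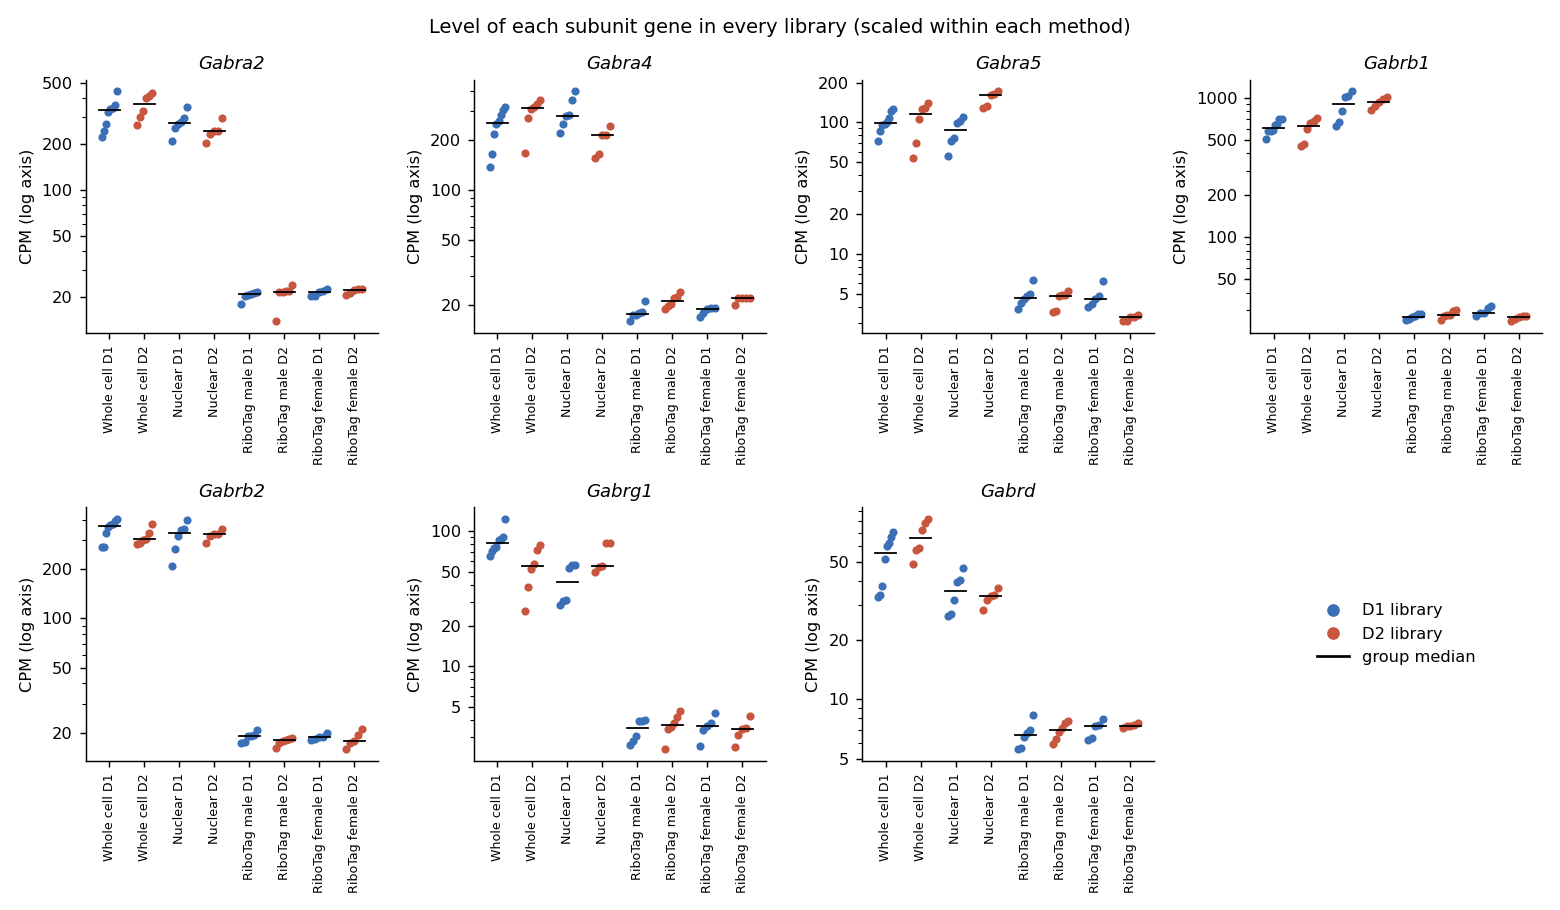
Level of each subunit gene as CPM (log axis, scaled within each method) in every library of the 8 groups. Points are libraries, D1 in blue and D2 in red, and bars are group medians. The 5 female RiboTag D2 libraries sit above the 5 D1 libraries for Gabra4 and below them for Gabra5, and the 5 nuclear D2 libraries sit above the 6 D1 libraries for Gabra5.

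The comparison of D1 and D2 within each method asked which subunits the 2 MSN types express differently. The alpha4 gene was the one called: it was higher in D2 by 1.18-fold in male and in female RiboTag libraries and lower in D2, 0.673-fold, in nuclear libraries. No member was called in whole cell libraries, and none of Gabra2, Gabrb1, Gabrb2 and Gabrd was called in any method where it was tested. Gabra5 and Gabrg1 did not pass the filters of any method. The filters used FPKM scaled by DESeq2's size factors from unfiltered counts, unlike the FPKM set out above. On the latter Gabra5 reached 1.68 in nuclear D2 and 1.36 in whole cell D2, and Gabrg1 1.34 in whole cell D1 libraries.

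Gabra4, the alpha4 subunit, ran from 16.0 to 21.3 CPM in the 6 male RiboTag D1 libraries (median 17.7) and from 19.1 to 24.1 in the 6 D2 libraries (median 21.3). All 6 D2 libraries were above the D1 median and 3 were above every D1 library. The log2 fold change was 0.24 ± 0.06 (adjusted p = 0.0187, edgeR's quasi-likelihood test). It was 0.20 to 0.29 with each library left out in turn, and the call was lost without D1 number 3, D1 number 6 or D2 number 2 (adjusted p = 0.0507, 0.0502 and 0.0541).

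In females, Gabra4 measured 19.3, 17.0, 19.2, 18.1 and 19.0 CPM in the 5 D1 libraries and 22.2, 20.2, 22.3, 22.3 and 22.1 in the 5 D2 libraries. The groups did not overlap. The log2 fold change was 0.24 ± 0.05 (adjusted p = 0.0101, edgeR's quasi-likelihood test), and the call stood with any 1 of the 10 libraries left out. The share of all tested genes called was 9.30% in male and 4.52% in female libraries, where 1 of 3 tested members was called in each.

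Both RiboTag changes were below the log2 change of 0.38 that the study's full rule requires, so by that rule neither was called. The test of the difference between the sexes in this cell type effect gave 0.00 ± 0.09 for Gabra4 (adjusted p = 0.997, edgeR's quasi-likelihood test).

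In whole cell libraries Gabra4 ran from 138 to 318 CPM in the 8 D1 libraries (median 255) and from 168 to 350 in the 6 D2 libraries (median 314). Of the D2 libraries, 5 were above the D1 median, and the groups overlapped. The log2 fold change of 0.27 ± 0.20 was close in size to that of RiboTag but was not called (adjusted p = 0.619, edgeR's quasi-likelihood test), in a comparison where 1.14% of genes were called.

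In nuclear libraries Gabra4 ran from 222 to 397 CPM in the 6 D1 libraries (median 282) and measured 215, 217, 246, 165 and 157 in the 5 D2 libraries. All 5 D2 libraries lay under the D1 median and 4 lay under every D1 library. The log2 fold change was -0.57 ± 0.17 (adjusted p = 0.0377, edgeR's quasi-likelihood test), opposite in sign to the RiboTag values. Called genes were 16.1% of all tested in nuclear libraries, and 1 of 5 tested members was among them.

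The nuclear call rested on few libraries: it was lost without D1 number 2 or 4 or D2 number 1, 2, 5 or 7, with a log2 fold change of -0.70 to -0.44 and an adjusted p of 0.0233 to 0.131 over the 11 omissions, and with the library number as a block (-0.52, adjusted p = 0.150). Background was estimated at 0.588 to 14.2% of the Gabra4 counts in nuclear D1 and 22.4 to 57.9% in nuclear D2 libraries. With this background subtracted the log2 fold change was -0.78 ± 0.23 (adjusted p = 0.0312).

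Gabra2, the alpha2 subunit, gave no call. In male RiboTag libraries it ran from 17.9 to 21.6 CPM in D1 (median 20.8) and from 13.8 to 23.9 in D2 (median 21.7), with 1 D2 library below and 3 above every D1 library. Its log2 fold changes were 0.01 ± 0.09 in male and 0.03 ± 0.05 in female RiboTag, 0.17 ± 0.17 in whole cell and -0.18 ± 0.14 in nuclear libraries.

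Gabra5, the alpha5 subunit, was not tested with the filters of the study, and its values cover both strands. In nuclear libraries it ran from 55.9 to 109 CPM in D1 and measured 163, 133, 127, 172 and 162 in D2, without overlap. In female RiboTag libraries it measured 4.84, 3.95, 6.22, 4.53 and 4.14 CPM in D1 and 3.30, 3.12, 3.32, 3.08 and 3.43 in D2, also without overlap but in the other direction. Male RiboTag D1 (3.85 to 6.39) and D2 (3.62 to 5.26) libraries overlapped. Background was estimated at 2.80 to 38.0% of its counts in nuclear D1 and 39.2 to 64.2% in nuclear D2, and at most 1.19% in RiboTag. Without the FPKM filter the female RiboTag log2 fold change was -0.53 ± 0.12 (adjusted p = 0.0172, edgeR's quasi-likelihood test) and the nuclear one was -0.27 ± 0.16 (adjusted p = 0.180), the second being opposite in sign to the CPM above, under scaling factors taken from 30791 genes in place of 9228. With background subtracted the nuclear groups overlapped in FPKM over the gene span, at 0.500 to 0.778 in D1 (median 0.701) and 0.602 to 0.963 in D2 (median 0.657).

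Neither beta subunit gene was called in whole cell or nuclear libraries, and neither was tested in RiboTag libraries. Gabrb1 ran from 506 to 709 CPM in whole cell D1 and from 448 to 722 in D2 libraries (log2 fold change -0.05 ± 0.15), and from 630 to 1114 in nuclear D1 against 811 to 1009 in D2 (0.08 ± 0.17). Gabrb2 gave -0.14 ± 0.14 in whole cell and 0.04 ± 0.15 in nuclear libraries. Neither passed the RiboTag filter of 0.1 FPKM over the gene span, although Gabrb1 had 24.9 to 32.2 CPM in those libraries, since its span is 491 kb. In female RiboTag libraries Gabrb1 ran from 27.3 to 32.2 CPM in D1 and from 24.9 to 27.4 in D2, where 4 of 5 libraries lay under every D1 library.

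Gabrd, the delta subunit that pairs with alpha4, did not follow it past the test. Its log2 fold changes were 0.36 ± 0.20 in whole cell (adjusted p = 0.437), -0.09 ± 0.18 in nuclear (0.742), 0.06 ± 0.09 in male RiboTag (0.754) and 0.06 ± 0.07 in female RiboTag libraries (0.766), all by edgeR's quasi-likelihood test. Whole cell D1 libraries ran from 33.0 to 70.6 CPM and D2 from 48.9 to 82.3, with 3 D2 libraries above every D1 library.

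Gabrg1, the gamma1 subunit, ran from 65.8 to 123 CPM in whole cell D1 and from 25.7 to 78.1 in D2, where 4 of 6 lay under every D1 library. Background was estimated at 19.9 to 84.9% of its counts in whole cell D1 and 11.8 to 96.1% in D2, and at 99.6 to 100% in nuclear D2, where no level of its own could be told from background. In RiboTag libraries it ran from 2.44 to 4.64 CPM, with the groups overlapping.

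The median log2 fold change of the tested members was 0.17 in whole cell (all genes -0.09), -0.09 in nuclear (0.03), 0.06 in male RiboTag (0.00) and 0.06 in female RiboTag libraries (0.00). In whole cell libraries the split of all calls moved with scaling, from 59 of 187 higher in D2 to 145 of 209 with DESeq2's size factors, with no member called in either.

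**Figure D2:**
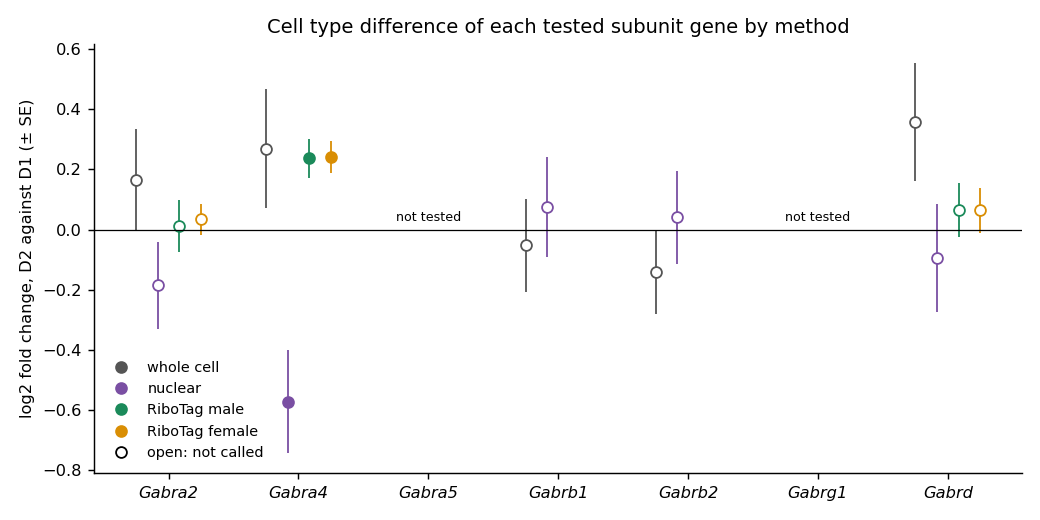
Log2 fold change (D2 against D1, vertical axis) with standard error of each tested subunit gene, by method. Filled points are called and open points are not: Gabra4 is called at 0.24 in both RiboTag comparisons and at -0.57 in the nuclear one, and the other points are open.

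**Figure D3:**
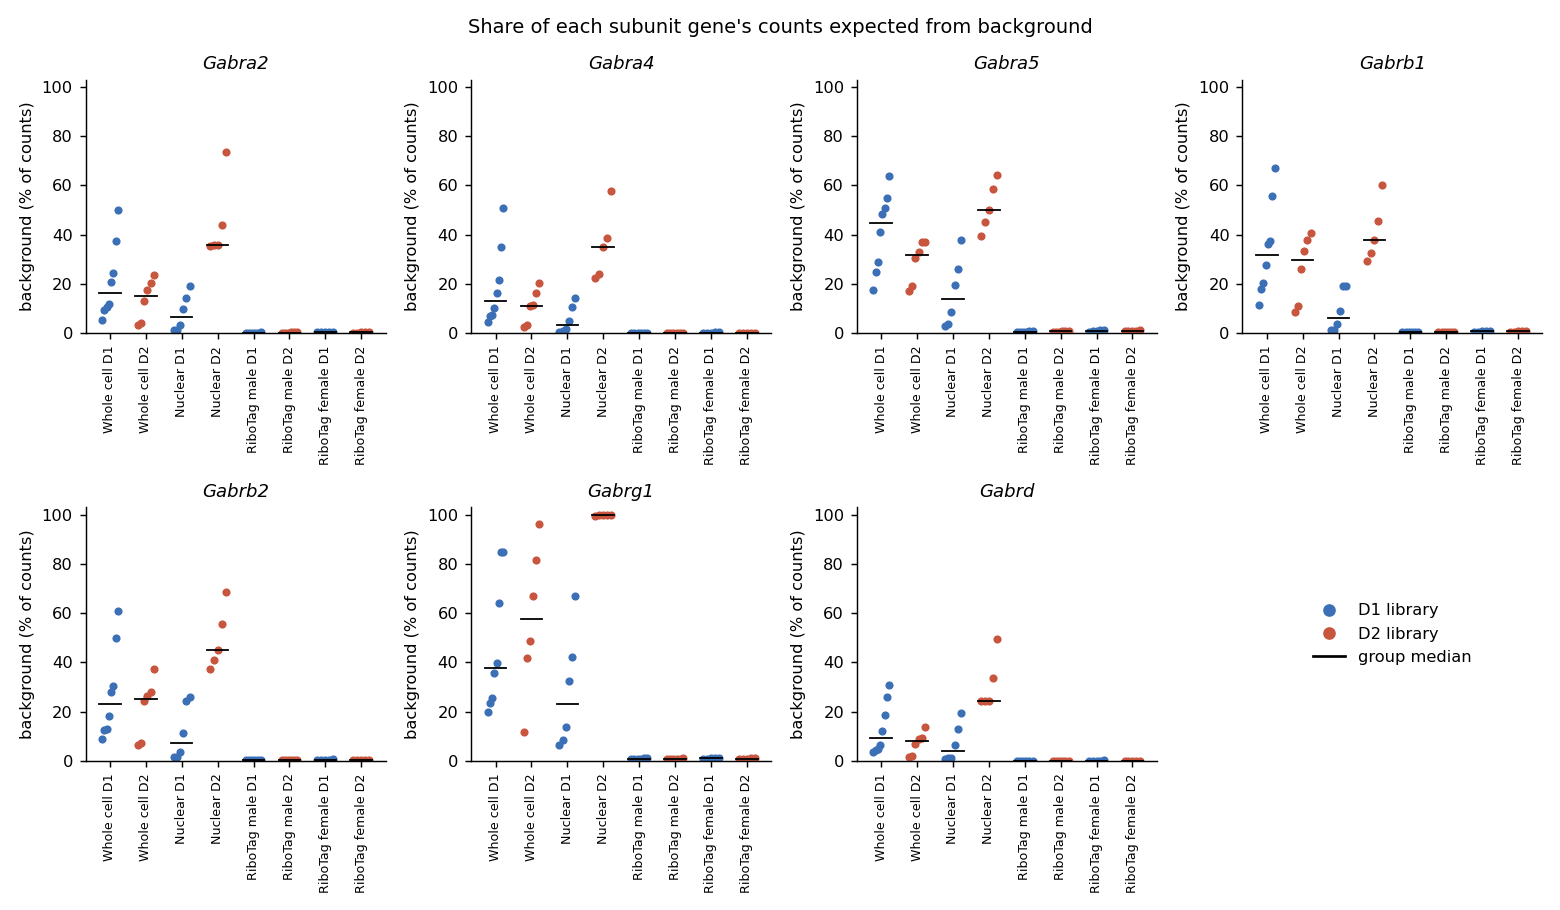
Share of each subunit gene's counts estimated to be background (vertical axis, percent), per library, with D1 in blue, D2 in red and bars for group medians. RiboTag libraries are near 0, and nuclear D2 libraries lie above nuclear D1 libraries for most genes, reaching 99.6 to 100% for Gabrg1.

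Whether the cell type difference itself changed between methods was tested in 1 fit of the 37 male libraries, in which the 7 members all passed the filter on low counts. For Gabra4 the D2 against D1 difference was lower in nuclear than in whole cell libraries by a log2 value of -2.05 ± 0.41 (adjusted p = 0.000635) and higher in RiboTag than in nuclear libraries by 1.90 ± 0.42 (adjusted p = 0.00360), both by edgeR's quasi-likelihood test with Benjamini-Hochberg adjustment. Gabra2, Gabrb1, Gabrb2 and Gabrd were called as well, with differences of -1.57, -1.06, -1.04 and -1.69 in the former contrast and 1.28, 1.05, 0.96 and 1.28 in the latter. Of the 7 members 5 were therefore called in each contrast, in the former all lower and in the latter all higher. Of all genes 21.9% were called in the former, 1831 of 6553 upward, and 14.6% in the latter, 3865 of 4356 upward. The median over members in the former was -1.06, against 0.33 over all genes.

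Between RiboTag and whole cell libraries no member was called, where 0.120% of genes were. Gabra4 differed by -0.14 ± 0.39 (adjusted p = 1.00) and Gabrg1, the most distant, by 0.60 ± 0.32, both by edgeR's quasi-likelihood test. This fit held the nuclear libraries too. Fitted on the whole cell and RiboTag libraries alone, an alternative added after the data were seen, Gabra4 differed by -0.17 ± 0.37 (adjusted p = 1.00, edgeR's quasi-likelihood test) and 0 members were called. The 2 contrasts with nuclear libraries share those libraries. With scaling factors from genes that pass the filters of every method, Gabrb1 and Gabrb2 changed sign (0.11 and 0.16 in nuclear minus whole cell, -0.15 and -0.27 in RiboTag minus nuclear). Gabra4 alone kept its direction and its call in both contrasts under all 5 alternatives, at -2.12 to -0.89 and 0.67 to 1.96. Its within-method fold changes (-0.57 in nuclear and 0.27 in whole cell libraries) lie closer together than the -2.05 of this fit. They match the -0.89 obtained with factors from genes kept in all methods better. Those of Gabra2 (-0.18 and 0.17) and Gabrd (-0.09 and 0.36) also lie closer together than in this fit. Those of Gabrb1 (0.08 and -0.05) and Gabrb2 (0.04 and -0.14) lie in the opposite order to it. The size of the difference, and for Gabrb1 and Gabrb2 its sign, thus depends on the scaling.

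**Figure D4:**
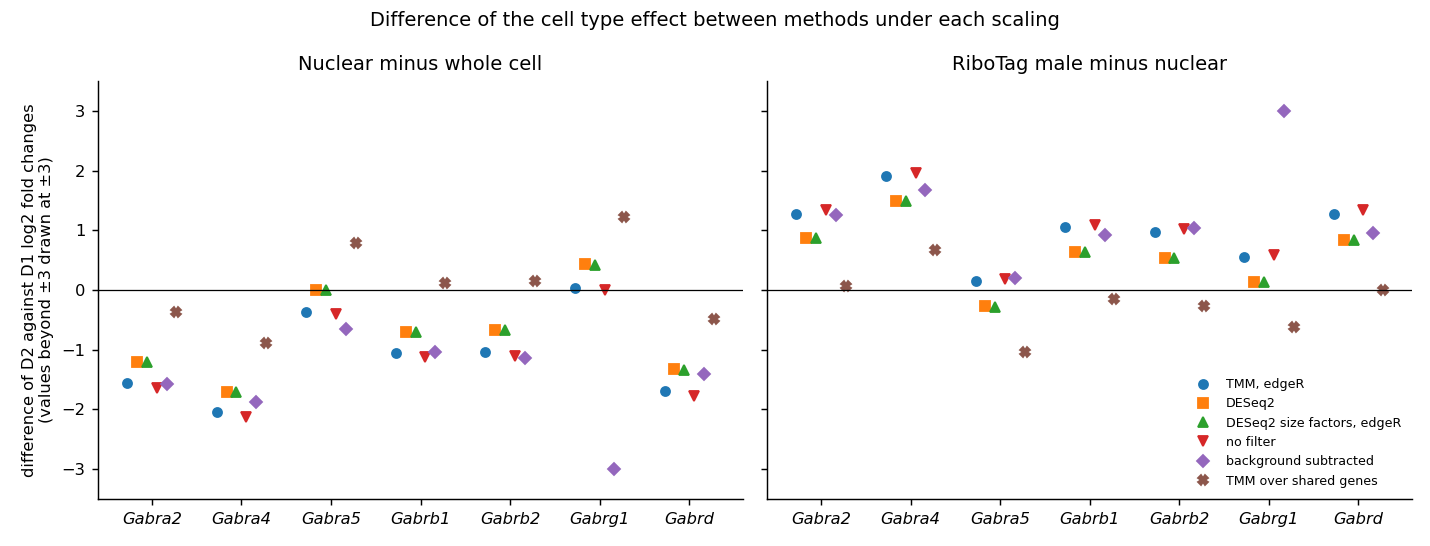
Difference between methods of the D2 against D1 log2 fold change (vertical axis) for each subunit gene, nuclear minus whole cell on the left and male RiboTag minus nuclear on the right, with 1 marker per scaling or filter and values beyond 3 drawn at 3. Gabra4 lies below 0 on the left (-2.12 to -0.89) and above 0 on the right (0.67 to 1.96) under every setting, while Gabrb1 and Gabrb2 cross 0 with factors from genes kept in all methods.

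The levels themselves were compared between methods in the same fit, averaged over D1 and D2. In nuclear against whole cell libraries 4 members were called, against 20.0% of all genes: Gabrd -1.02 ± 0.21, Gabrg1 -0.61 ± 0.16, Gabra2 -0.60 ± 0.18 and Gabrb1 0.39 ± 0.14. Gabrd and Gabrb1 kept their call and direction under all 5 alternatives.

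In RiboTag against whole cell libraries 88.0% of all genes were called, with a median log2 difference of -1.91, and Gabrd alone of the members was called, at 1.02 ± 0.20. Without the nuclear libraries in the fit 3 members were called, Gabrd at 0.97, Gabrb1 at -0.31 and Gabra5 at -0.25. In RiboTag against nuclear libraries 90.2% were called, with a median of -2.19, and 5 members were: Gabrd 2.03 ± 0.23, Gabra2 0.73 ± 0.19, Gabra4 0.73 ± 0.21, Gabrg1 0.56 ± 0.17 and Gabrb1 -0.65 ± 0.14. Relative to the median of all genes each of the 7 was higher in RiboTag, by 1.66 for Gabrb1 to 2.93 for Gabrd over whole cell libraries. With the scaling from genes kept in all methods, the sign turned for Gabra2 (-1.23 and -1.10), Gabra4 (-0.96 and -1.10), Gabrd in the whole cell contrast (-0.31) and Gabrg1 (-1.35) and Gabrb2 (-1.59) in the nuclear contrast, so the differences of level hold only for the scaling they are given with.

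Shares within a subunit class need no scaling between libraries. Each is a member's counts per kilobase of span over the sum of its class (alpha, beta, or gamma and delta). The D1 and D2 means were compared by a two-sided exact permutation test over libraries, with Benjamini-Hochberg adjustment over the 28 tests, and 5 passed.

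In nuclear libraries Gabra4 made up 39.8% ± 5.4 of the alpha class in D1 (SD, n = 6) and 26.9% ± 4.6 in D2 (n = 5), a fall of 13.0 points by exact permutation (p = 0.00433, adjusted 0.0404). Its D2 shares were 26.2, 29.7, 33.2, 22.1 and 23.2%, under the lowest D1 share of 33.7% in each library. Gabra5 went the other way, from 10.1% ± 2.8 to 17.7% ± 2.6 (exact permutation p = 0.00433, adjusted 0.0404), and Gabrb1 rose from 29.0% ± 1.8 to 32.5% ± 0.7 of the beta class (exact permutation p = 0.00649, adjusted 0.0444). Without any 1 of 9 of the 11 libraries (all but D1 number 3 and D2 number 3) Gabra4 and Gabra5 did not pass, the adjusted p of Gabra4 being 0.0556 to 0.0606. Gabrb1 passed only without D1 number 3. The size of the Gabra4 difference stayed at -14.5 to -11.8 points over the 11 omissions, that of Gabra5 at 6.84 to 8.32 and that of Gabrb1 at 3.02 to 4.01. With any D1 library omitted Gabra4 and Gabra5 gave the smallest p that 5 libraries against 5 allow (exact permutation p = 0.00794), so that each call lost there was lost at that smallest p. With background subtracted the Gabra4 fall was 5.92 points and no longer passed (adjusted p = 0.242), the Gabra5 rise was 9.35 points and passed (0.0303), and the Gabrb1 rise was 3.16 points and did not pass (0.0606), all by exact permutation. The other alpha genes Gabra3 and Gabra6 had higher median shares in nuclear D2 (6.12 and 9.69%) than in D1 (3.2 and 0.621%), and Gabra6 is known from cerebellar granule cells.

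In male RiboTag libraries Gabra4 made up 25.5% ± 2.8 of the alpha class in D1 and 31.3% ± 3.2 in D2 (n = 6 each). This missed the threshold (exact permutation p = 0.0108, adjusted 0.0505), and passed without D1 number 1 or D2 number 3 (adjusted p = 0.0364 in both). In females the shares were 27.8% ± 1.2 and 30.2% ± 2.9 (n = 5 each; exact permutation p = 0.127, adjusted 0.254). In whole cell libraries they were 30.0% ± 4.7 (n = 8) and 35.6% ± 4.9 (n = 6; exact permutation p = 0.0553, adjusted 0.155), and passed without D2 number 2 (adjusted 0.0379). The mean was higher in D2 in these 3 comparisons and lower in nuclear libraries.

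Gabra5, counted over both strands, fell from 6.12% ± 0.87 to 3.88% ± 0.26 of the alpha class in female RiboTag libraries (n = 5 each; exact permutation p = 0.00794, the smallest this design allows, adjusted 0.0444). Gabrg1 fell from 11.8% ± 2.6 to 6.60% ± 2.7 of the gamma and delta class in whole cell libraries (n = 8 and 6; exact permutation p = 0.0020, adjusted 0.0404), with any 1 library left out as well. With background subtracted neither passed. For Gabra5 the difference (-2.24 points before and -2.23 after) hardly moved and its p did not, while the adjusted p was 0.0606, whereas for Gabrg1 the difference went from -5.23 to -4.03 points (exact permutation p = 0.0246, adjusted 0.0986).

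Per kilobase of span, the delta subunit had the highest median share of its class in whole cell and RiboTag libraries and was level with Gabrg3 in nuclear libraries. Gabrd held a median of 48.7 and 51.0% of the gamma and delta class in whole cell D1 and D2, 36.8 and 34.9% in nuclear, and 69.4 to 72.9% in the 4 RiboTag groups, which did not overlap with nuclear libraries. Gabrg3 took 29.1 to 41.6% in nuclear libraries (medians 36.9% in D1 and 34.3% in D2) and 3.18 to 6.31% in RiboTag libraries. These counts include introns, and the share of nuclear against cytoplasmic RNA in each method was not measured here.

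**Figure D5:**
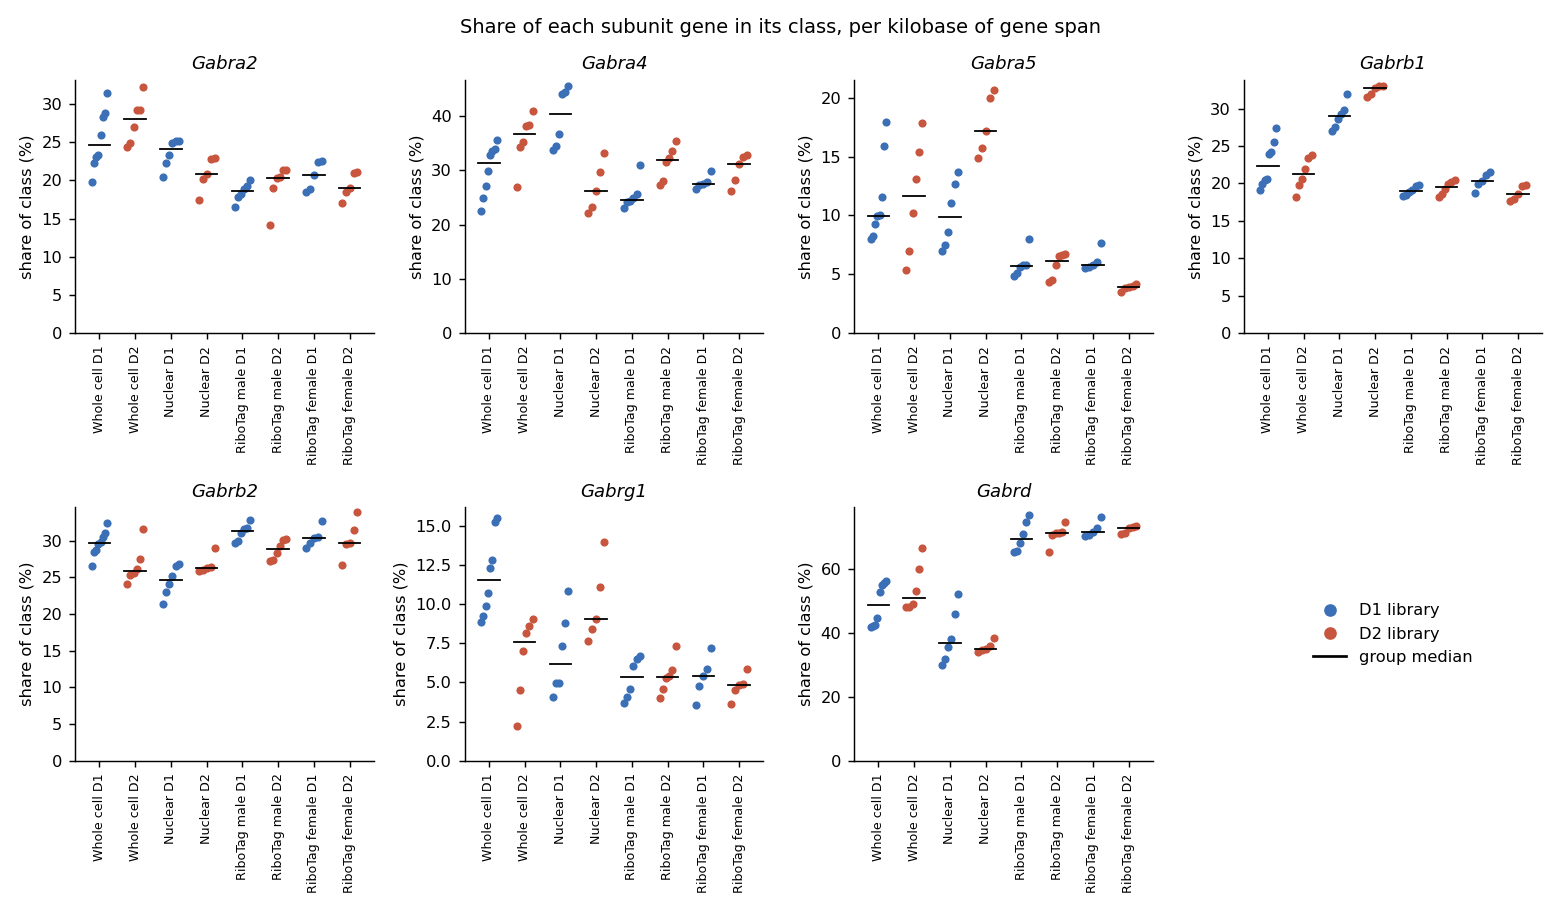
Share of each subunit gene in its class, per kilobase of gene span (vertical axis, percent), in every library, with D1 in blue, D2 in red and bars for group medians. Gabrd holds the larger part of its class in RiboTag libraries (medians of 69.4 to 72.9%), and Gabra4 falls from D1 to D2 in nuclear libraries but not in the others.

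In bulk libraries, fewer cells of a type and less RNA per cell cannot be told apart, and this holds for each difference above. Sex made no called difference to any member: Gabra2, Gabra4 and Gabrd, the 3 tested, gave female against male log2 values of 0.07 ± 0.06, 0.04 ± 0.04 and 0.10 ± 0.06 in RiboTag libraries. Of all genes 0.0837% were called by sex (6 by edgeR and 6 by DESeq2), and 610 had an unadjusted p under 0.05. For the sex difference of the cell type effect 0% were called by edgeR and 3 genes by DESeq2, and 511 had an unadjusted p under 0.05.

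Of the 12 other subunit genes, 3 or 4 were tested per method. The median log2 fold change of this list was -0.10 in whole cell, -0.27 in nuclear, -0.07 in male RiboTag and 0.11 in female RiboTag libraries.

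The remaining GABA pathway genes were 33 in 5 lists. Of 24 tested in nuclear libraries, 10 were lower in D2, 1 was higher and 13 were not called, where 16.1% of all genes were called, and the median was -0.38 against 0.03 over all genes. In whole cell libraries 0 of 24 were called (1.14% of all genes), in male RiboTag 1 of 25 (9.30%) and in female RiboTag 0 of 25 (4.52%), where the medians were -0.11, 0.07 and 0.01.

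The GABA-making enzymes Gad1 and Gad2 and the vesicular transporter Slc32a1 all fell in nuclear D2, by 0.48, 0.82 and 1.64 on the log2 scale. Slc32a1 was also the one called gene of male RiboTag, where it rose by 0.24 ± 0.06 (adjusted p = 0.00651, edgeR's quasi-likelihood test), so the nuclear and RiboTag directions were opposite here as they were for Gabra4. The GABA-B receptor subunit Gabbr1 (-0.75) and the chloride exporter Slc12a5 (-0.62) were lower in nuclear D2.

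Among the 16 postsynaptic and trafficking genes tested, Gabarapl1 (-1.30), Hap1 (-1.06) and Gphn (-1.95), the gephyrin scaffold of inhibitory synapses, were lower in nuclear D2, and Igsf9b was higher (0.57). Of 5 genes used by MSNs in general, 2 were lower there as well, among them Ppp1r1b, which fell by 1.94. The part of background and cell makeup in these falls was not tested. Gphn ran from 1744 to 8808 CPM in nuclear D1 and from 957 to 1456 in nuclear D2 libraries. On scales set within each method, its median was 484 CPM in whole cell D1 and 6751 in male RiboTag D1 libraries. What these Gphn counts are made of was not tested.

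The genes most like each member were sought over the 22 RiboTag libraries, by Pearson's r of log2 CPM plus 1 across genes that passed the filter, as a description. The libraries share 1 protocol and depth range, and the 11th-ranked gene and the median over genes are given for scale. D1 and D2 libraries of both sexes were pooled without adjustment. A difference between D1 and D2 that a pair of genes shares, as Gabra4 may with others, therefore raises their r. Gabra4 had the highest values, with Tbc1d8 (r = 0.897) and Gnal (r = 0.853), against 0.825 for the 11th gene and 0.00 for the median. Gabra5 was closest to Gm9962 (0.839) and to Ywhab (0.812). Gm9962 lies inside Gabra5 and fragments there were counted for both genes, so its r sets a part against its whole.

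The others were lower. Gabrg1 was closest to Tmem130 (0.814) and AW551984 (0.779), Gabrb2 to Diras1 (0.771) and Cmas (0.723), and Gabrb1 to Nktr (0.766) and Shisa7 (0.761). Gabrd was closest to Gm13389 (0.695) and Ppp2r5d (0.684), and Gabra2 to Snf8 (0.671) and Zfp397 (0.660).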

How the data were processed

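The authors aligned stranded, ribo-depleted paired-end libraries to GRCm38 with HISAT2 2.0.5 and counted fragments with featureCounts on Ensembl release 90, over all features of a gene, without regard to strand, with multi-overlap allowed and multi-mapping fragments not counted. The deposited values are raw counts per gene. The table has 49 columns, each matched by its name to a sample or, for nuclear D2 and female RiboTag, to its group only. Some titled whole cell D2 samples have no column. Columns whose names mark them as repeats of a sample (whole cell D1 number 1 and D2 number 3) were summed, giving 47 libraries. The series' design text instead gives 9 D1 and 7 D2 for whole cell, as many as the columns. The D2 pair agreed nearly within counting noise (chi-square per degree of freedom 1.04), whereas the D1 pair (6.90) differed more than the closest pair of different D1 libraries (6.02), so the D1 column was also tried as a library of its own. No pair of libraries within a group differed by less than counting noise (chi-square per degree of freedom 2.35 to 968 over 118 pairs).

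Genes needed an FPM above 1 in at least 2 libraries, and an FPKM of at least 1 in 1 library and at most 50000 in all (whole cell, nuclear) or of at least 0.1 in 2 libraries (RiboTag). For these filters FPM and FPKM were scaled by DESeq2's size factors from unfiltered counts. Counts were tested with edgeR 4.0.16 in R 4.3.3 after TMM scaling, with DESeq2 1.42.0 as an alternative, on scripts tested on simulated data. Background per kilobase was estimated from 1429 olfactory and vomeronasal receptor genes, and 99.7% of genes matched the annotation (GENCODE M21) for coordinates. The members and lists were chosen with earlier results of these data known. All 7 members are named, with genes called in the pathway lists and the 2 genes most like each member. Some genes of these lists are not reported here. Protein sequences were not used here.

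Library numbers shared across cell types are numbers only: the correlation of deviations of same-numbered libraries was -0.285 to 0.212.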

Additional observations from a re-analysis of the deposited data

Results flagged for a closer look

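In the 112 groups of 4 to 10 values examined for a library far from the rest, 9 were found, where chance gives about 1 in 20 groups. Gabra2 was low in male RiboTag D1 number 6 (17.9 CPM, the others 20.3 to 21.6) and in male RiboTag D2 number 4 (13.8 CPM, the others 21.6 to 23.9), whose Gabra2 share of the alpha class was 14.1%. Gabra4 was low in female RiboTag D2 number 2 (20.2 CPM, the others 22.1 to 22.3), and its share was high in male RiboTag D1 number 1 (30.9%). Gabrg1 was high in whole cell D1 number 5 (123 CPM, the others 65.8 to 90.9). The Gabra5 share was high in male RiboTag D1 number 6 (7.98%) and female RiboTag D1 number 4 (7.64%), and the Gabrb2 share in nuclear D2 number 5 (29.0%).

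The cell type difference differed between methods, by edgeR's interaction test, for 5 members in nuclear minus whole cell: Gabra2 (-1.57), Gabra4 (-2.05), Gabrb1 (-1.06), Gabrb2 (-1.04) and Gabrd (-1.69). The same 5 were called in RiboTag minus nuclear, at 1.28, 1.90, 1.05, 0.96 and 1.28 in that order. Values are log2.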

How the results depend on the processing

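With no FPKM filter, or no filter, 5 members were called in nuclear libraries, Gabrb1 at -1.04 or -1.02 and Gabrb2 at -1.11 or -1.09, and 2 in female RiboTag. By the study's full rule 0 were called in either RiboTag comparison. With the replicate block 0 members and 0 genes were called in nuclear libraries (Gabra4 -0.52, adjusted p 0.150), and in whole cell libraries 92 genes in place of 187; it changed no other call of a member where it was run. DESeq2 called 729 genes in whole cell libraries, the repeat column of D1 number 1 as its own library gave 369 (0 members), and leaving the FPKM filter off raised the nuclear calls from 1484 to 8082. Omitting 1 library gave 0 members called in whole cell, 0 to 1 in nuclear and male RiboTag and 1 in female RiboTag, and 1 to 3, 0 to 3, 0 to 2 and 1 shares past the threshold. With background subtracted 0 shares passed in whole cell and in female RiboTag, and Gabrg1 turned to -7.86 in the cell type difference of nuclear minus whole cell and to -4.96 in the nuclear share. With scaling over genes kept in all methods, nuclear minus whole cell called 3 cell type differences and 2 levels, RiboTag minus nuclear 1 cell type difference, and RiboTag minus whole cell 7 levels. Reversed there were Gabrb1 (0.11, -0.15) and Gabrb2 (0.16, -0.27) in the 2 cell type differences, and the levels of Gabra2 (-1.23), Gabra4 (-0.96) and Gabrd (-0.31) against whole cell and of Gabra2 (-1.10), Gabra4 (-1.10), Gabrb2 (-1.59) and Gabrg1 (-1.35) against nuclear. RiboTag minus whole cell had 3 levels called with DESeq2, with its size factors, with no filter or without the nuclear libraries (added after the data were seen), and RiboTag minus nuclear 3 cell type differences with size factors or no filter. The cause was not tested. Of the alternatives of single fold changes with no library omitted, 324 kept direction and side of the threshold, 22 gained a call, 17 lost one and 16 reversed. Depth limits the nuclear libraries, 3 counts being up to 0.811 CPM.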
